A study of Mus musculus with 20 samples.

Results

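The zinc finger genes numbered Zfp900 to Zfp999 were described in sorted male germ cells of mice, in which they were followed across 3 ages and with or without Tex15. Members were the gene rows whose symbol is Zfp followed by a number of 3 digits that begins with 9, and nothing else. The rule found 55 genes, Zfp930 to Zfp995, of 24983 gene symbols in the 3 count tables together. Zfp955a and Zfp955b carry a letter after the number and were left out by the rule. RNA of the flow-sorted cells was sequenced in 20 libraries in 6 groups, which were Tex15+/- (heterozygous) and Tex15-/- (knockout) germ cells at e16.5 and e18.5 (embryonic days 16.5 and 18.5) with 3 libraries each, and at d2 (postnatal day 2) with 4 libraries each. The heterozygous libraries, which carry 1 lost copy of Tex15 themselves, served as the controls. All mice had a mixed strain background, and cells were sorted by green fluorescence. Which transgene gave the fluorescence is not given in the sources used here. The series text calls the samples biological triplicates, while d2 holds 4 libraries a genotype, and the p-values measure the spread between these libraries.

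Most of these genes encode proteins with a KRAB domain at one end and a run of zinc fingers at the other. The fingers read DNA, each a few bases, and the KRAB domain recruits the corepressor TRIM28 with the histone methyltransferase SETDB1, which places a repressive mark on histone H3 and silences the site. Many KRAB zinc finger proteins bind retrotransposons, and genes of this family often stand in clusters of related genes. TEX15 is a germ cell protein that acts with the piRNA pathway to silence transposons in fetal male germ cells, at the stage when DNA methylation is laid down anew. The comparison of genotypes asks how these genes are expressed when TEX15 is lost.

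Expression is given as CPM (counts-per-million), taken over the counts in genes after scaling by TMM factors, the trimmed-mean scaling of edgeR. A gene was called when its adjusted p (Benjamini-Hochberg over all genes tested) was under 0.05. A library held 14.3 to 31.5 M counts in total, with 7.78 to 14.2 M of them in genes. Tex15 stood at 604 to 2080 CPM in the heterozygous libraries and at 1.68 to 5.27 CPM in 9 of the 10 knockout libraries, while the library labelled knockout d2 replicate 2 held 100 CPM. The 12 germ cell markers summed to 3960 to 8390 CPM in every library, against 28.8 to 91.8 CPM for the 10 Sertoli cell markers and 147 to 347 CPM for the 10 markers of stroma. The 6 Leydig cell markers summed to 12.7 to 110 CPM, with the highest sum in heterozygous e16.5 replicate 2, and 1 of them, Insl3, was at 0 in all libraries. Sums were 74.3 to 148 CPM for endothelial markers, 29.4 to 108 CPM for macrophage and white blood cell markers and 3.24 to 21.1 CPM for red blood cell markers. In such bulk samples, fewer cells of a type and less RNA per cell cannot be told apart.

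The predicted proteins had the features of the family in most members. A reading frame with a KRAB box pattern was found for 48 of the 55 genes, and 53 had 3 or more zinc fingers, with a median of 11 and a maximum of 21. Zfp957 and Zfp972 had no finger by this pattern. The genes lay on 12 chromosomes, with 13 on chromosome 17, 10 on chromosome 4, 9 on chromosome 2, 8 on chromosome 7 and 5 on chromosome 8. A RefSeq promoter window, 250 bases before to 50 bases after the gene start in GRCm38.p6, was matched for 50 of the 55 members.

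The promoters of the genes to which the expression results return are shown here as the 150 bases before the start, 5′ to 3′ on the gene's strand. Capitals mark a CCAAT box (CCAAT, or ATTGG where it lies on the other strand) or the letters TTGGGCGGGT. Zfp981 is given from chr4:146514770-146514919 on the plus strand, Zfp985 from chr4:147553127-147553276 on the plus strand, Zfp979 from chr4:147642509-147642658 on the minus strand and Zfp984 from chr4:147809789-147809938 on the minus strand, all of the cluster on chromosome 4. Zfp945 is given from chr17:22867135-22867284 on the minus strand, and Zfp961 from chr8:71950916-71951065 on the plus strand.
Zfp981: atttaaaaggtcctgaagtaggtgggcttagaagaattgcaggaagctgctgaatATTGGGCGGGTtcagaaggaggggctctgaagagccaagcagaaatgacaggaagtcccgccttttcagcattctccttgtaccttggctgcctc
Zfp985: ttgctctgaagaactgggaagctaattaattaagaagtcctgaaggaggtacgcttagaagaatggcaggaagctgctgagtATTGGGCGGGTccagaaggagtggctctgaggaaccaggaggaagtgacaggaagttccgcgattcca
Zfp979: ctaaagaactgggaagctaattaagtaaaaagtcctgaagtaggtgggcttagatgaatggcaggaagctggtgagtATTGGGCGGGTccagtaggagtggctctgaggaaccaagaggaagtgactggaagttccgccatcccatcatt
Zfp984: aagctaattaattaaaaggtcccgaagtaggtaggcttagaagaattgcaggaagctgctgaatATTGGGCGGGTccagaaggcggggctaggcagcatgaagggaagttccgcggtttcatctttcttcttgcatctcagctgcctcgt
Zfp945: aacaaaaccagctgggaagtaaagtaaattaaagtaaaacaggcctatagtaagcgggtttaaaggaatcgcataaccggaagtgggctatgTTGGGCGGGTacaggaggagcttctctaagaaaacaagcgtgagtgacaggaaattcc
Zfp961: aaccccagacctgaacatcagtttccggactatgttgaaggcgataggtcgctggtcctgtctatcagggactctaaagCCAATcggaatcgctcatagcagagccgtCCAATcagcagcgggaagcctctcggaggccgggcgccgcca

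The 4 windows of chromosome 4 share the run ATTGGGCGGGT, and Zfp945 on chromosome 17 holds the same run without its first A. The 10 letters TTGGGCGGGT, searched on both strands, occurred in only 27 of the 32851 RefSeq windows of the same length (0.08%). They occurred in the first listed window of 8 of the 50 members (16.0%), and in 1 of the 247 other Zfp genes with a window. With the further windows of genes that have several, 9 members held them, which were Zfp979, Zfp980, Zfp981, Zfp982, Zfp984 and Zfp985 on chromosome 4 and Zfp945, Zfp947 and Zfp994 on chromosome 17. The run is the longest one common to the printed windows of Zfp945, Zfp979, Zfp981, Zfp984 and Zfp985. These genes are among the 8 members and the 27 windows counted, so their part of both shares was fixed in advance. The run was chosen after the windows were seen, and members of a cluster share sequence, so these windows are not independent examples. The CCAAT box was present in 38 of 50 members (76.0%), against 37.41% of all windows and 44.1% of the other Zfp genes. Its nearest copy stood a median of 66 bases before the start, with quartiles of 51.75 and 80.25 bases. Zfp961 held 2 CCAAT boxes, the nearer 37 bases before the start, and its window was CpG-rich with 21 CpG, against a median of 7 over all windows and 8 over the members. The E-box CACGTG was present in 7 members (14% against 7.15% of all windows) and the cyclic AMP response element TGACGTCA in 1. The windows of Zfp942 and Zfp943 overlap on opposite strands and hold the same E-box. Several chromosome 2 windows with the CCAAT box are near-identical, so the matches to these motifs are not independent either. The letters AAGATGGCG of YY1 and TTTCCCGC of E2F were in none of the members' windows, and in 1.4% and 1.07% of all windows. These matches are letters in a window and not measured binding sites.

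The members spanned a wide range of levels. Over all 20 libraries Zfp945 had the highest mean, 44.1 CPM (14.3 to 76.0), followed by Zfp961 at 41.6 CPM (23.4 to 68.2), Zfp979 at 39.9 CPM (20.5 to 85.0) and Zfp984 at 33.6 CPM (16.9 to 60.1). Zfp979 is also known as Ssm1b, a strain-specific modifier of transgene methylation. The order differed between groups. Zfp961 had the highest mean at e16.5, with 51.9 CPM in heterozygous and 57.2 CPM in knockout cells, against 46.8 and 45.5 CPM for Zfp945. At d2 Zfp961 (33.5 CPM) was above Zfp945 (21.6 CPM) in heterozygous cells, and Zfp979 (52.3 CPM) above Zfp945 (41.5 CPM) in knockout cells. Over all libraries Zfp948, Zfp992, Zfp981 and Zfp936 came next at 24.9, 18.3, 17 and 14.6 CPM. Those ranges overlap between neighbours in the order. Per kilobase of merged exons, Zfp984 was highest at 11.5 CPM per kb, then Zfp979 at 9.69, Zfp961 at 9.61 and Zfp948 at 9.38, while Zfp945, whose exons span 10.173 kb, stood at 4.33. Zfp932, which represses endogenous retroviruses in embryonic stem cells, had a mean of only 0.119 CPM from 25 counts in all. Zfp982, linked to the stem cell state, had 3.33 CPM.

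Members with near-identical copies had few counts. The share of each member's 50-base stretches that recur in transcripts of other genes was taken as a measure of how far its reads can be told apart. All 8 members with 80% or more of their stretches shared had a mean under 1 CPM. The 18 members with under 5% shared had means from 1.05 to 44.1 CPM, with a median of 5.89 CPM. Zfp965, Zfp966 and Zfp967 on chromosome 2, with 100%, 89.46% and 100% of their stretches shared, had 0 counts in every library. How the authors counted reads that fit several places is not given in the sources used here, so a count near 0 in these genes does not show that they are silent. Zfp961 and Zfp949 shared 0% and Zfp945 shared 0.91%. Zfp985 shared 16.17%, Zfp979 24.6%, Zfp981 39.9% and Zfp984 54.56%, so values of the chromosome 4 genes may hold reads of their copies.

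**Figure D1:**
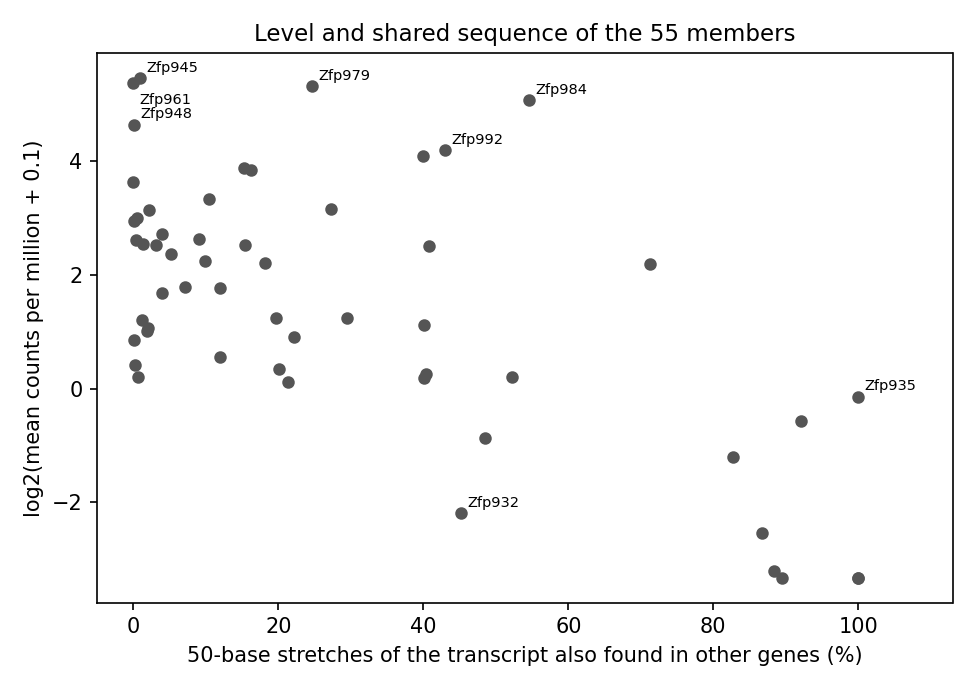
Mean level of each member over its libraries, as log2(CPM + 0.1) on the y axis, against the percentage of its 50-base stretches found in transcripts of other genes on the x axis, 1 point a gene. The 8 members at 80% or more all lie below 1 CPM, and none of the 18 members under 5% does.

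At d2 the table of counts names only 32 of the 55 members by their symbols. Of the other 23, 21 stood there under an older symbol that RefSeq lists as a synonym (Gm13247 for Zfp981, Gm13154 for Zfp985, 2610305D13Rik for Zfp979, Gm13157 for Zfp984), and Zfp950 and Zfp972 were unmatched. The rule does not reach rows under older symbols, so their d2 values are given apart. After the filter on low counts 43 members were tested in the e16.5 libraries and 44 in those of e18.5, while d2 left 24 and a further 14 under older symbols.

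At e16.5 no member passed the test between genotypes. Of 43 members tested 0 were called, where 0.0061% of all 16384 genes tested were called, and 3 had an unadjusted p under 0.05. DESeq2 also called 0. The median log2 difference between knockout and heterozygous cells was -0.03 in the members and -0.01 over all genes. Zfp954 had the smallest p. Its heterozygous libraries held 1.33, 0.976 and 0.918 CPM and its knockout libraries 2.83, 1.9 and 3.75 CPM. The groups did not overlap, but the counts are low and the difference of 1.37 (SE 0.50) had an adjusted p of 0.629. Zfp979 held 27.2, 33.7 and 32.3 CPM in heterozygous cells and 22.3, 20.5 and 26.8 CPM in knockout cells. Every knockout library was below every heterozygous one, with a log2 difference of -0.44 (SE 0.19, adjusted p = 0.641). Its chromosome 4 neighbour Zfp984 held 34.5, 38.6 and 24.7 CPM against 22.0, 22.2 and 26.0 CPM, a difference of -0.50 (SE 0.21, adjusted p = 0.639) with an overlap. All 8 tested members of chromosome 4 had a difference below 0 at this age, with a median of -0.13, and their sum was 103.5 to 124.4 CPM in heterozygous and 91.12 to 97.44 CPM in knockout libraries. At this age the Sertoli marker sum was 44.0 to 48.4 CPM in heterozygous and 28.8 to 37.4 CPM in knockout libraries, and the stroma marker sum 171 to 331 and 147 to 184 CPM. Their part in these differences was not tested. The remaining genes with the smallest p, Zfp947, Zfp939 and Zfp950, had differences of 1.05, 0.90 and -0.37 with adjusted p from 0.666 to 0.720. Knockout libraries were all above the heterozygous ones for 4 of 43 members, against 7.18% of all genes. They were all below for 2 of 43 members, against 994 of 16384 genes.

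At e18.5 Zfp961 was lower in knockout germ cells and was the single member called. It held 39.8, 35.3 and 49.0 CPM in heterozygous libraries (41.4 ± 6.96, SD, n = 3) and 24.9, 23.4 and 25.5 CPM in knockout libraries (24.6 ± 1.05, SD, n = 3). All 3 knockout libraries lay close together and below all heterozygous ones. The log2 difference was -0.75 (SE 0.19, adjusted p = 0.0327), a fold of 1.68. Of 44 members tested 1 was called, where 2.33% of 18075 genes were called in either direction and 0.271% were called lower. The call rests on small groups. It held without heterozygous replicate 2 (adjusted p = 0.0452) and ended without heterozygous replicate 1 (0.0647) or 3 (0.118) and without knockout replicate 1 (0.103), 2 (0.158) or 3 (0.0900), with a log2 difference between -0.85 and -0.61 in these fits. Summed markers of macrophages and white blood cells were 29.4 to 42.3 CPM in heterozygous and 87.5 to 108 CPM in knockout libraries at this age, and their part in the result was not tested.

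The other members at e18.5 did not pass. Zfp974 held 5.48, 5.58 and 7.37 CPM against 10.5, 8.88 and 8.52 CPM, with every knockout library higher and a log2 difference of 0.60 (SE 0.30, adjusted p = 0.471). Zfp952 held 9.06, 7.28 and 6.16 CPM against 5.04, 3.21 and 5.77 CPM, with every knockout library lower and a difference of -0.68 (SE 0.35, adjusted p = 0.477). Zfp946 (-0.64, adjusted p = 0.408), Zfp979 (-0.39, adjusted p = 0.541) and Zfp954 (-1.12, adjusted p = 0.579) had overlapping groups. In this comparison heterozygous replicate 3 stood apart for members of several chromosomes. Heterozygous replicates 1 to 3 summed to 127.4, 132.2 and 184.1 CPM on chromosome 17, and knockout ones to 146.0, 110.4 and 131.3 CPM. On chromosome 7 the sums were 44.28, 44.08 and 59.61 CPM, against 52.39, 49.88 and 45.53 CPM. The sum of the chromosome 4 genes was 143.8, 143.9 and 234.3 CPM in the heterozygous replicates 1 to 3, and 144.2, 153.2 and 154.3 CPM in the knockout ones. Zfp979 alone held 45.1, 42.8 and 85.0 CPM against 41.7, 43.6 and 46.7 CPM, and without heterozygous replicate 3 its difference was 0.0030. Knockout libraries were all higher for 2 of 44 members, against 9.45% of all genes. They were all lower for 2 of 44 members, against 1328 of 18075 genes.

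At d2 most members had a higher mean in knockout cells, 21 of the 24 tested, but Zfp945 was the single member that passed the test. Zfp945 held 29.9, 14.3, 21.1 and 21.1 CPM in heterozygous libraries (21.6 ± 6.42, SD, n = 4) and 46.6, 33.5, 38.8 and 47.1 CPM in knockout libraries (41.5 ± 6.56, SD, n = 4). The lowest knockout library was above the highest heterozygous one. The log2 difference was 0.94 (SE 0.23, adjusted p = 0.0279), a fold of 1.92. Of 24 members tested 1 was called, where 2.8% of 15343 genes were called in either direction and 2.03% were called higher. The call held without heterozygous replicate 1 or 4 or knockout replicate 2, and ended without heterozygous replicate 2 (adjusted p = 0.0608) or 3 (0.0717) and without knockout replicate 1 (0.10), 3 (0.0597) or 4 (0.0951). The log2 difference then lay between 0.78 and 0.97.

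Zfp953 and Zfp943 were near the threshold at d2. Zfp953 held 4.2, 2.63, 3.76 and 2.45 CPM in heterozygous libraries and 6.68, 7.15, 5.53 and 11 CPM in knockout libraries, with no overlap. Its log2 difference was 1.22 (SE 0.38, adjusted p = 0.10), which DESeq2 (adjusted p = 0.0316) and the fit of all ages together (0.0381) called. Zfp943 held 3.0, 1.18, 2.5 and 2.0 CPM against 5.62, 2.38, 5.14 and 7.3 CPM. Its groups overlapped through knockout replicate 2, and the difference of 1.24 (SE 0.48, adjusted p = 0.189) was called in the fit of all ages together (0.0388). Zfp961 held 26.5, 34.3, 38.1 and 35.0 CPM against 41.8, 41.0, 47.5 and 43.2 CPM, so that every knockout library was higher, with a difference of 0.37 (SE 0.18, adjusted p = 0.311). Zfp944 also had all knockout libraries higher (0.59, adjusted p = 0.357), and Zfp933 had overlapping groups (1.00, adjusted p = 0.350).

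**Figure D2:**
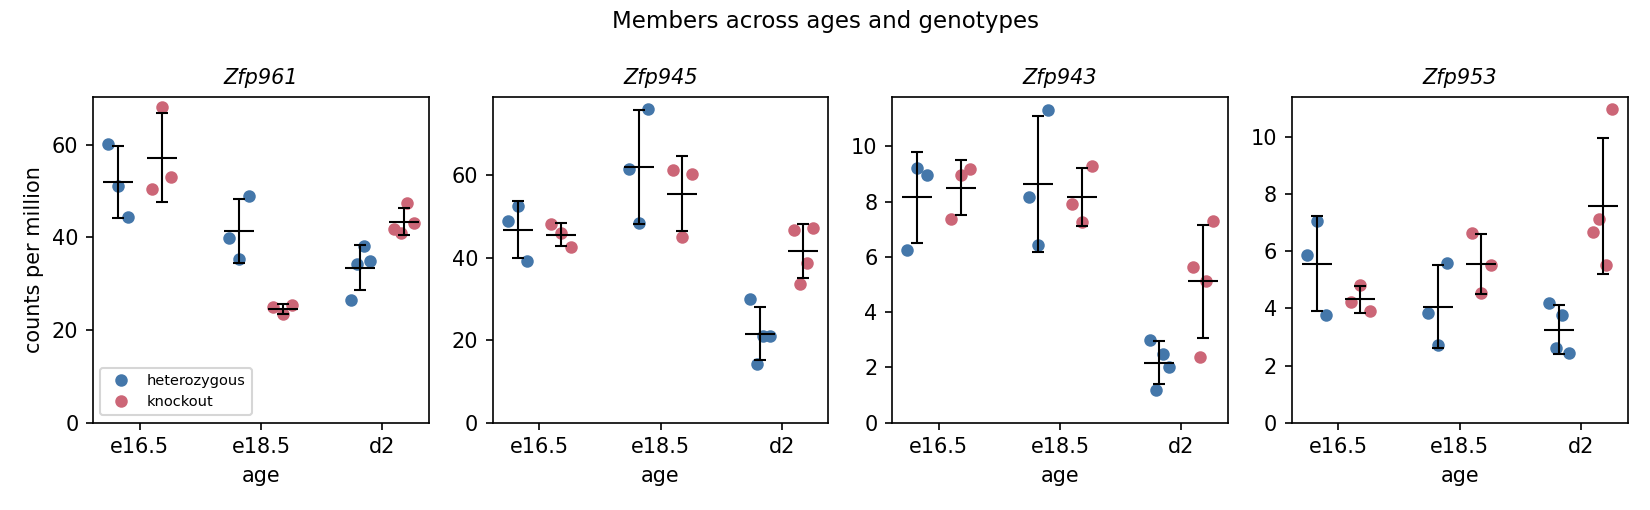
CPM of Zfp961, Zfp945, Zfp943 and Zfp953 in each library (points) at e16.5, e18.5 and d2, with the mean and SD of the heterozygous and knockout groups (3 libraries each at the embryonic ages, 4 at d2). Zfp961 separates the genotypes downward at e18.5 (24.6 against 41.4 CPM), and Zfp945 upward at d2 (41.5 against 21.6 CPM).

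The direction at d2 was shared by most members. Of the 24 tested, 21 (87.5%) had a log2 difference above 0, with a median of 0.34, against 47.9% of all genes and a median of -0.02. The other Zfp genes, numbered below 900, stood between, with 57.5% of 268 above 0 and a median of 0.08. With the 14 rows under older symbols, 34 of 38 (89.5%) were above 0 and the median was 0.43. Without knockout replicate 2, the library with 100 CPM of Tex15, 35 of 40 were above 0 with a median of 0.43. The origin of its Tex15 counts was not tested. Over all genes, leaving out this library gave 573 calls at d2, against 430 with every library. Leaving out any other single d2 library gave 187 to 377 calls. Knockout libraries were all higher than heterozygous ones for 5 of the 24 members, against 5.42% of all genes, and for 7 of the 38 rows with older symbols. The summed level of the 32 members listed in all tables was 152.7 to 196.5 CPM in heterozygous and 194.8 to 259.9 CPM in knockout libraries at d2, with an overlap at knockout replicate 2. Heterozygous d2 libraries had a germ cell marker sum of 3960 to 4370 CPM and knockout ones of 4290 to 5460 CPM, and their Sertoli marker sums were 78.0 to 91.8 and 62.3 to 80.8 CPM. Their part in this direction was not tested. Members of a cluster share sequence and are not independent replicates of one another.

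**Figure D3:**
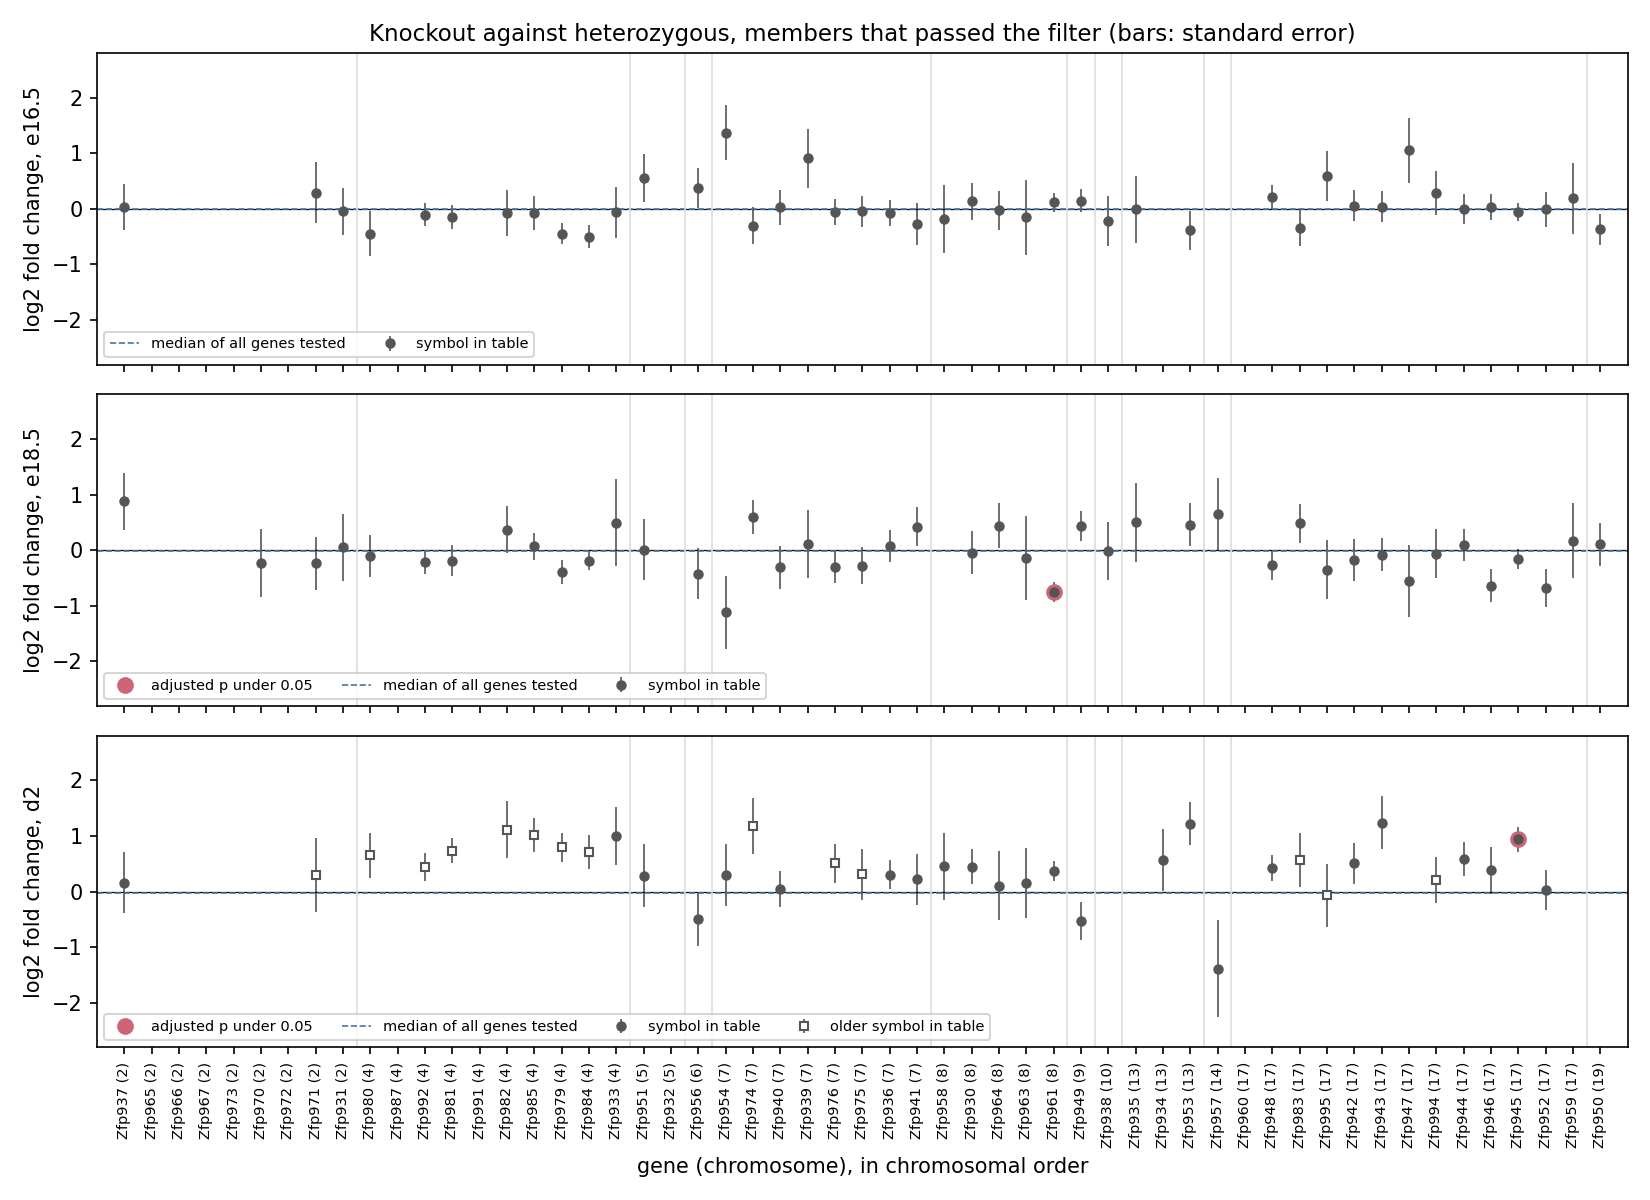
Knockout minus heterozygous log2 difference with its SE for each member tested, in chromosomal order, at e16.5, e18.5 and d2. Open squares are d2 rows under older symbols, red marks called genes and the dashed line is the median of all genes. At d2, 34 of 38 points lie above 0, and Zfp945 is the called one.

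On chromosome 4 all 8 members tested at d2 had a difference above 0, with a median of 0.76. The same held for the 7 tested on chromosome 7 (median 0.305) and the 5 on chromosome 8 (median 0.37), older symbols included. It also held for the few on chromosomes 2, 5 and 13. On chromosome 17, 9 of 10 were above 0 (median 0.466). The single tested members of chromosomes 6, 9 and 14 were below 0, at -0.498, -0.532 and -1.39. The chromosome 4 genes were listed at d2 under older symbols apart from Zfp933, and their names were chosen after their values were seen. Zfp981 held 12.7, 13.9, 13.2 and 12.8 CPM in heterozygous and 22.3, 19.3, 20.9 and 25.1 CPM in knockout libraries, with no overlap and a log2 difference of 0.73 (SE 0.22, adjusted p = 0.0914). DESeq2 called it (adjusted p = 0.0110). Zfp985 held 12.3, 7.27, 8.2 and 13.8 CPM against 28.0, 12.3, 14.8 and 29.0 CPM, a difference of 1.02 (SE 0.31, adjusted p = 0.0933) with an overlap at knockout replicate 2. It was called by DESeq2 (adjusted p = 0.0362) and, in edgeR, without knockout replicate 2 (0.0356).

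Zfp979 held 31.7, 22.5, 24.0 and 41.9 CPM in heterozygous and 66.9, 30.5, 40.7 and 71.1 CPM in knockout libraries at d2. Its difference of 0.80 (SE 0.26, adjusted p = 0.120) passed without heterozygous replicate 4 (0.0327) or knockout replicate 2 (0.0293). Zfp984 held 36, 16.9, 19.9 and 23.7 CPM against 51.6, 23.0, 23.4 and 60.1 CPM, a difference of 0.71 (SE 0.31, adjusted p = 0.268). In Zfp979, Zfp984, Zfp985 and Zfp982, knockout replicates 1 and 4 stood well above knockout replicates 2 and 3, which reached into or near the heterozygous range. The differences of Zfp982, Zfp980 and Zfp992 were 1.12, 0.65 and 0.44, with adjusted p from 0.284 to 0.461. The sum of the cluster was 81.56 to 115.2 CPM in heterozygous libraries and 206.3, 111.0, 136.1 and 221.0 CPM in knockout replicates 1 to 4. Zfp980, Zfp982 and Zfp994 hold the letters TTGGGCGGGT in a promoter window and were not among the 5 genes from which that run was taken. Their differences were 0.65, 1.12 and 0.21, with overlapping groups in each. Of the 30 other tested members, in which the letters were not found, 26 were above 0 as well. These include Zfp992, Zfp930 and Zfp934, which had no matched promoter window and were not searched.

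**Figure D4:**
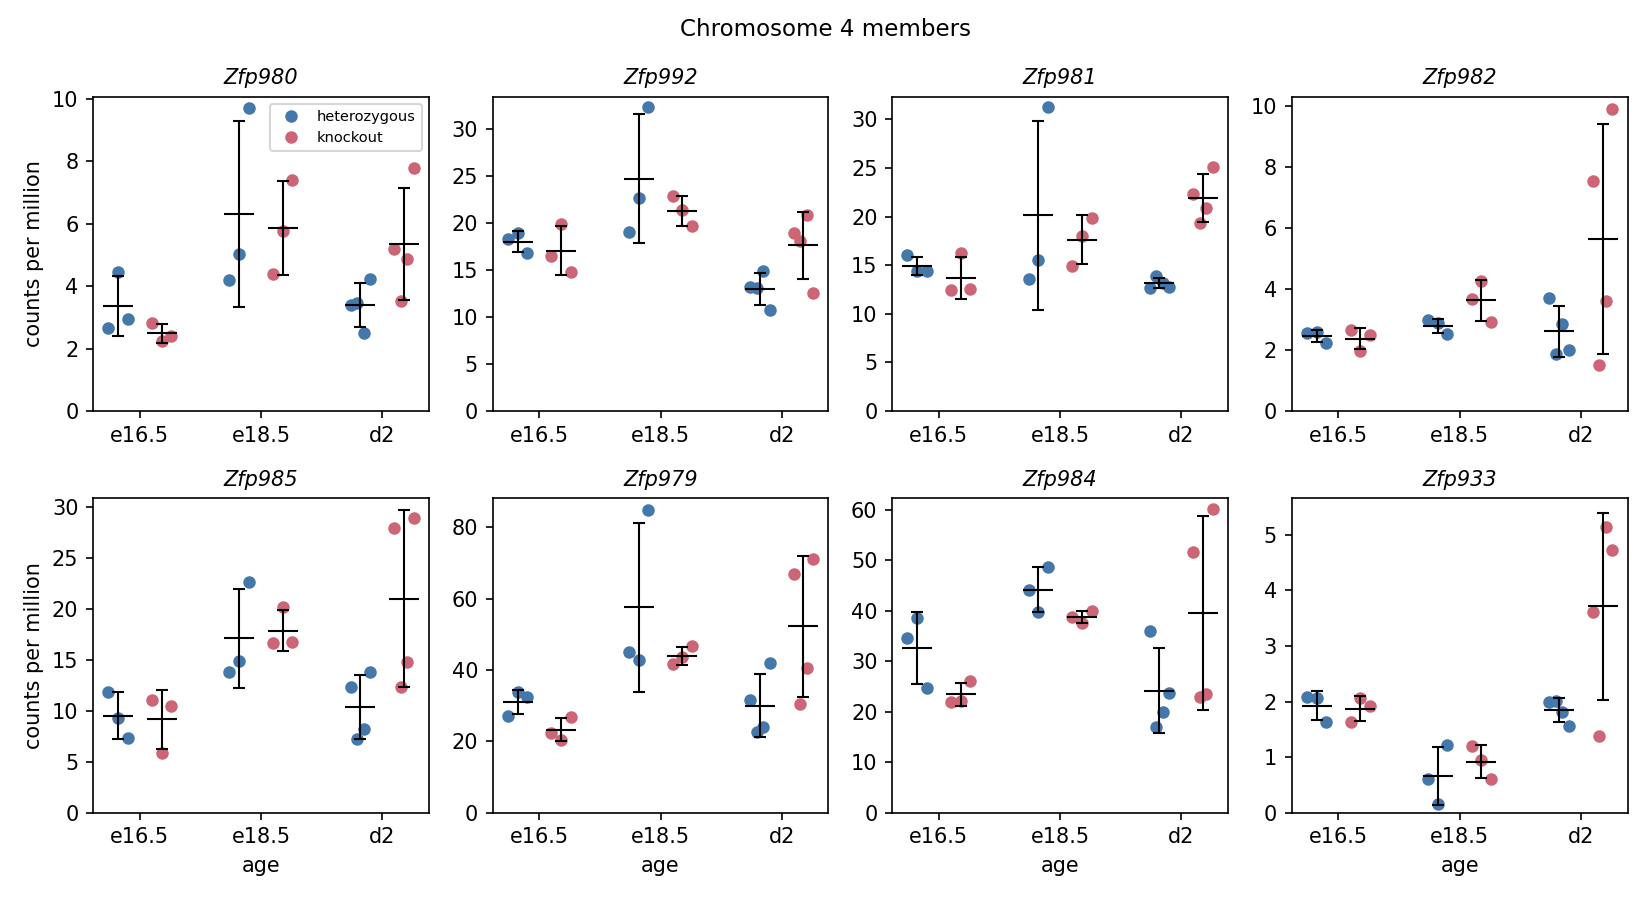
CPM of 8 members on chromosome 4 in each library, by age and genotype, with group means and SD. Heterozygous replicate 3 is the highest point at e18.5 for Zfp979 (85.0 CPM), and knockout replicates 1 and 4 are the highest at d2 (66.9 and 71.1 CPM).

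Whether the genotype difference changed between ages was tested in a fit of all 20 libraries on the 23853 symbols common to the tables, in which 30 members were tested. Zfp961 was the member called between e18.5 and d2, where 0.526% of 18619 genes were called. Its genotype difference moved from below 0 to above 0, by 1.12 (SE 0.24, adjusted p = 0.0288). The call ended without heterozygous e18.5 replicate 3 (adjusted p = 0.106), without knockout e18.5 replicate 1 (0.0567), 2 (0.0944) or 3 (0.0705), without heterozygous d2 replicate 1 (0.0586) and without knockout d2 replicate 3 (0.0558). Zfp945 had a shift of 1.11 (SE 0.29, adjusted p = 0.0764). With older symbols renamed, Zfp979 had a shift of 1.21 (SE 0.37, adjusted p = 0.138). Between e16.5 and e18.5 no member was called, where 0.0967% of genes were. DESeq2 called 0 there too, and 3 members had an unadjusted p under 0.05. The smallest p belonged to Zfp961 (-0.89, adjusted p = 0.335), Zfp954 (-2.50, adjusted p = 0.540) and Zfp934 (2.71, adjusted p = 0.749).

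The same fit gave the course with age. The d2 table was made with another set of gene symbols, so a difference between d2 and the embryonic ages cannot be told apart from one between tables. Marker sums differed between ages too. In heterozygous libraries the germ cell sum was 7020 to 8020 CPM at e16.5, 5960 to 6720 CPM at e18.5 and 3960 to 4370 CPM at d2, and the Sertoli sum 44.0 to 48.4, 50.5 to 58.1 and 78.0 to 91.8 CPM. In knockout libraries the germ cell sum was 7990 to 8390, 5430 to 6520 and 4290 to 5460 CPM, and the Sertoli sum 28.8 to 37.4, 51.5 to 58.1 and 62.3 to 80.8 CPM. Their part in the age differences was not tested. In heterozygous cells no member was called between e16.5 and e18.5, where 17.8% of genes were called, and 3 had an unadjusted p under 0.05. DESeq2 also called 0. Between e18.5 and d2, 2 members rose and 5 fell of 30, where 51.2% of genes were called, 24.1% higher and 27% lower. Zfp945 fell from 62.0 ± 13.8 to 21.6 ± 6.42 CPM (SD, n = 3 and 4), a log2 difference of -1.53 (SE 0.21, adjusted p = 1.06e-06). Zfp943 fell from 8.63 ± 2.46 to 2.17 ± 0.779 CPM (-2.0, adjusted p = 6.35e-05), and Zfp946 from 15 ± 6.31 to 4.14 ± 1.59 CPM (-1.86, adjusted p = 4.29e-05). These 3 genes all lie on chromosome 17. Zfp938 and Zfp964 also fell, and Zfp933 and Zfp934 rose, all from means under 5 CPM.

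Between e16.5 and d2, 10 of 30 members fell in heterozygous cells and none rose, where 43.1% of genes were called and 22.7% were called lower. Zfp952 fell from 13.3 ± 5.54 to 5.10 ± 0.759 CPM (-1.37, SE 0.31, adjusted p = 0.000787) and Zfp961 from 51.9 ± 7.85 to 33.5 ± 4.94 CPM (-0.63, SE 0.17, adjusted p = 0.00344). Zfp943, Zfp946 and Zfp945 fell by 1.92, 1.31 and 1.12 on the log2 scale. Zfp944 fell by 0.85 and Zfp941 by 1.01. The call of Zfp944 ended without heterozygous e16.5 replicate 2 (adjusted p = 0.158). That of Zfp941 ended without heterozygous e16.5 replicate 1 (0.0759) or 2 (0.385) and without heterozygous d2 replicate 2 (0.152) or 3 (0.115). With older symbols renamed, 13 of 46 members fell and 2 rose between e18.5 and d2, where 51.1% of genes were called, 23.8% higher and 27.3% lower. Zfp979 (-0.95, adjusted p = 0.00363), Zfp984 (-0.88, adjusted p = 0.00976), Zfp981 (-0.62, adjusted p = 0.0348) and Zfp992 (-0.94, adjusted p = 0.00105) were among them.

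In knockout cells 4 of 30 members fell between e16.5 and e18.5 and none rose, where 35.1% of genes were called and 17.7% were called lower. Zfp961 fell from 57.2 ± 9.58 to 24.6 ± 1.05 CPM (-1.22, SE 0.18, adjusted p = 2.12e-05) and Zfp952 from 13.4 ± 2.25 to 4.67 ± 1.32 CPM (-1.51, SE 0.34, adjusted p = 0.00124). Zfp954 and Zfp940 (-1.06, adjusted p = 0.0258) were the others, and the call of Zfp940 ended without knockout e16.5 replicate 2 (0.0622) or 3 (0.0543) or knockout e18.5 replicate 3 (0.114). With older symbols renamed, Zfp979, Zfp980 and Zfp985 rose between these ages, where 35.4% of genes were called and 17% were called higher.

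Between e18.5 and d2 in knockout cells, 6 of 30 members rose and 3 fell, where 55% of genes were called, 25.3% higher and 29.7% lower. Zfp961 rose from 24.6 ± 1.05 to 43.4 ± 2.91 CPM (0.82, SE 0.17, adjusted p = 0.000306). Zfp948 rose from 19.1 ± 6.07 to 35.7 ± 9.29 CPM (0.90, SE 0.28, adjusted p = 0.00758), a call that ended without knockout e18.5 replicate 3 (0.0655). Zfp949 fell from 15.5 ± 5.26 to 7.20 ± 2.46 CPM (-1.10, SE 0.29, adjusted p = 0.00225). Zfp936 rose by 0.69 (adjusted p = 0.0382) and Zfp946 fell by 0.83 (adjusted p = 0.0349). The call of Zfp936 ended without knockout e18.5 replicate 2 (0.0728) or 3 (0.152) or knockout d2 replicate 1 (0.0922), 3 (0.0603) or 4 (0.124). That of Zfp946 ended without knockout e18.5 replicate 1 (0.0614), 2 (0.0891) or 3 (0.0667) or knockout d2 replicate 2 (0.0587) or 3 (0.111). Zfp945 was -0.42 here (SE 0.20, adjusted p = 0.0839), against -1.53 in heterozygous cells.

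Partners of KRAB zinc finger proteins and other silencing genes were measured together as a list of 25 genes, referred to as the partner list. Not all genes of the list are direct partners of KRAB proteins. At e16.5 0 were called, with 2 at an unadjusted p under 0.05 and 0 by DESeq2, at e18.5 1 rose, where 2.06% of all genes were called higher, and at d2 5 rose and none fell, where 2.03% were called higher. The median log2 difference at d2 was 0.21, against -0.02 over all genes. Trim28, the corepressor itself, was at 201 ± 32.7 CPM in heterozygous and 206 ± 33.1 CPM in knockout cells at d2 (0.03, adjusted p = 0.942), and Setdb1 had a difference of 0.19 (adjusted p = 0.551). Cbx5, a heterochromatin protein that reads the repressive histone mark, rose at e18.5 from 398 ± 59.2 to 684 ± 28.3 CPM (0.78, SE 0.12, adjusted p = 0.000552) and at d2 from 319 ± 16.4 to 485 ± 70.6 CPM (0.60, SE 0.12, adjusted p = 0.00775). Fam208a (0.69, adjusted p = 0.00732) and Pphln1 (0.63, adjusted p = 0.00418), which encode TASOR and periphilin of the HUSH silencing complex, rose at d2. The histone methyltransferase gene Suv39h2 (0.80, adjusted p = 0.0118) and Trim33 (0.48, adjusted p = 0.0355), a relative of Trim28, rose at d2 as well. The call of Suv39h2 ended without heterozygous replicate 1 (0.0514) or knockout replicate 3 (0.0555) or 4 (0.0521), and that of Trim33 without heterozygous replicate 1 (0.126), 2 (0.0801) or 3 (0.0666) or knockout replicate 1 (0.108), 2 (0.0674) or 3 (0.0829).

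Other zinc finger genes were counted in the same fits. Of the Zfp genes numbered below 900, 0 of 283 were called at e16.5, with 10 at an unadjusted p under 0.05 and 0 by DESeq2. At e18.5 2 of 286 rose, where 2.06% of all genes were called higher, and at d2 9 of 268 rose and 1 fell, where 2.03% were called higher. Of 9 tested zinc finger genes with known targets, Zfp69 rose at e18.5, from 8.0 ± 2.24 to 20.4 ± 5.93 CPM (1.35, SE 0.28, adjusted p = 0.00849), and at d2, from 5.59 ± 2.01 to 13.7 ± 4.54 CPM (1.29, SE 0.34, adjusted p = 0.0445). The e18.5 call ended without heterozygous replicate 2 (0.0716) or knockout replicate 2 (0.110). The d2 call held without heterozygous replicate 1 and ended without any other single library, with adjusted p from 0.0629 to 0.116.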

How the data were processed

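RNA sequencing gave 20 libraries of sorted male germ cells. The deposited tables hold counts, whole-number and not normalized, per gene symbol for each library. Per the submitters' processing notes the authors worked on the mouse build mm9 with Bowtie, STAR, featureCounts and edgeR. Versions, roles, strand use and the treatment of reads that fit several places are not given in the sources used here. Rows of repeats were left out of library sizes and tests, and the repeat family tables were not used.

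Each age was fitted alone in edgeR 4.0.16 (R 4.3.3) after filterByExpr (minimum count of 10 and minimum total of 15), with TMM scaling and a robust quasi-likelihood F test of genotype. A fit of all 20 libraries on 23853 common symbols tested ages and the differences between them. P-values were adjusted over all genes tested, with a threshold of 0.05. All CPM were scaled with the TMM factors of that joint fit. The scripts were tested on simulated data.

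Named were the called members, with the smallest p up to 6 in all, per knockout comparison, called members of at least 5 CPM per age comparison, called members or the 3 smallest p per difference between ages, the 8 highest means, Zfp932, Zfp982, and called genes of the partner and known-target lists, otherwise Trim28 and Setdb1. Chromosome 4 genes at d2 and the remaining names were added after their values were seen. The members and lists were chosen with earlier results of these data known.

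Promoter windows came from RefSeq (GRCm38.p6), which is not the build of the counts. Exon lengths, transcripts, zinc fingers and shared 50-base stretches came from GENCODE M21. Replicate numbers were not used to pair the libraries in the main fits. Same-numbered heterozygous and knockout libraries correlated by -0.254 to 0.105. At e18.5 the values were 0.105, 0.0533 and 0.0831, each the highest for its heterozygous library, so pairing at that age is not settled. No 2 libraries of the same group agreed within sampling noise, and pairs across groups were not checked. Alternatives were a replicate block, a filter at 1 CPM or none, median-ratio factors, DESeq2 1.42.0, all ages or only the compared groups in 1 fit, each library left out and, added after seeing the data, older symbols renamed. Precision follows the counts, which over all libraries ran from 0 for Zfp965, Zfp966 and Zfp967 and 2 for Zfp973 to 9755 for Zfp945.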

Additional observations from a re-analysis of the deposited data

Results flagged for a closer look

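The difference between genotypes in Zfp961 differed between e18.5 and d2, by 1.124 on the log2 scale (SE 0.243, adjusted p = 0.0288 in edgeR's quasi-likelihood test). It was -0.75 at e18.5 and 0.37 at d2, lower in 3 of 3 knockout libraries at e18.5 and higher in 4 of 4 at d2. The d2 difference alone did not pass in the same kind of test (adjusted p = 0.311). The call of the change between ages ended in 6 of the 14 fits that left out 1 library.

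At d2, 5 groups of 4 libraries held 1 library far from the other 3. The check covered 94 groups, which were the heterozygous and knockout groups of 47 genes, the 38 members tested at d2 with older symbols included, the named genes of the other lists and Tex15. Chance gives about 1 in 20. Tex15 was at 100 CPM in knockout replicate 2, against 2.02 to 2.57 CPM in the other knockout libraries. Zfp69 was at 20.4 CPM in the same library, against 10.8 to 12.4 CPM. Zfp936 was at 18.4 CPM in heterozygous replicate 3, against 15.4 to 15.9 CPM. Zfp956 was at 2.65 CPM in knockout replicate 1, against 2.06 to 2.16 CPM, and Zfp963 at 0.581 CPM in knockout replicate 4, against 1.38 to 1.54 CPM, both from few counts.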

How the results depend on the processing

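At e16.5 no member, gene of the partner list or other zinc finger gene was called under any alternative run. Zfp961 at e18.5 and Zfp945 at d2 were called under all alternatives run that kept every library. Leaving out 1 library at a time, the number of members called was 0 to 1 at e18.5 and at d2, and 0 to 2 for the difference between e18.5 and d2. In heterozygous cells it was 0 to 2 between e16.5 and e18.5, 6 to 8 between e18.5 and d2 and 7 to 11 between e16.5 and d2, and in knockout cells 2 to 3 and 5 to 10 for the earlier and the later interval. It was 1 to 3 (e18.5) and 3 to 11 (d2) for the other Zfp genes, 1 to 2 and 3 to 5 for the partner list, and 0 to 1 and 0 to 1 for genes with known targets. Without heterozygous replicate 3 the e18.5 difference of Zfp979 was 0.002964, from -0.39, and it ranged from -0.564 to 0.002964 over the single libraries left out.

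DESeq2 called 2 members at d2 and 2 for the difference between e18.5 and d2, and 4 and 17 other Zfp genes at e18.5 and d2. It also called more genes in all, 827 of 18013 at d2 and 590 of 20353 at e18.5, against 430 and 422 in the main fits. For the difference between e18.5 and d2 it called 400 of 13081 genes, against 98 of 18619. All ages in 1 fit called 3 of 30 members at d2, Zfp945, Zfp953 and Zfp943, where 770 of 18619 genes were called. With older symbols renamed, 1 member was called between e16.5 and e18.5 and 15 between e18.5 and d2 in heterozygous cells, and 7 between e16.5 and e18.5 in knockout cells, where 16 more members were tested. Over all genes 3310, 9525 and 6601 of 18635 were called in these comparisons. At e18.5 each of the 3 heterozygous libraries correlated best with the knockout library of its own number, which did not hold for all at e16.5 or d2. This is a hint of pairing from the data only, and whether the e18.5 libraries are paired is not settled. Over all genes, a replicate block called 599 at e18.5, against 422 without it, and 235 at d2, against 430. With this block, 4 other Zfp genes and 2 genes of the partner list were called at e18.5. At d2 5 other Zfp genes and 0 genes with known targets were called, while members called stayed at 1 at both ages. Zfp69 and Trim33 at d2 (adjusted p = 0.127 and 0.0873) and Zfp936 between e18.5 and d2 in knockout cells (0.0984) were no longer called with the block. The causes were not tested.

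Of the values for single genes in alternatives with all libraries, 333 kept their direction and their side of the threshold, 9 lost their call and 5 gained one. With 1 library left out, 364 kept both, 53 lost their call, 3 gained one and 1 changed direction. The values that kept their side include genes that were not called in the main fit. Counts limit what can be said of the lowest members: 8 of the 32 listed at d2, 12 of 55 at e16.5 and 11 of 55 at e18.5 were under the filter on low counts. The part of depth, shared sequence and low expression in this was not tested.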
